A study of Mus musculus with 18 samples.

Results

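Mouse embryonic stem cells with a knockout of Quaking (Quaking KO) were compared with unedited cells (WT) by ribosome profiling, in the 6 of 18 libraries of the series that hold these lines as stem cells at day 0, before embryoid body differentiation. There were 3 Quaking KO and 3 WT libraries, which the series describes as biological triplicates. Both lines have the E14 background, a mouse embryonic stem cell line, and both groups were sequenced in the same pool, MIX_1. All libraries came from cells treated with cycloheximide, which holds ribosomes in place, and from RNA fragments of 28 to 32 nt. The labels do not say how the gene was disrupted or how many clones the Quaking KO line represents. The other 12 libraries are Sam68 KO stem cells and the 3 lines at day 10 of embryoid body differentiation.

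Quaking is an RNA-binding protein of the STAR family. It binds a short sequence motif in precursor and mature mRNA, where it takes part in splicing, in mRNA stability and in translation, and it is best known for its roles in myelinating glia and in blood vessel formation. Ribosome profiling counts the mRNA fragments that ribosomes shield from nuclease, so a gene's count moves with its mRNA level as well as with the translation of that mRNA. No measurement of mRNA was used here to separate these, and in bulk samples fewer cells of a type and less RNA per cell cannot be told apart.

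The files identify features by versioned Ensembl ID without gene names, and 0 of the 51826 IDs could be matched to a symbol through the reference table used here, which holds no Ensembl ID. For that reason the gene encoding Quaking, the markers of stem cells and of other cell types, pathways and chromosomes were not identified among the features. Such genes may be among the features tested and called, without a name. Both the genotype and the cell type rest on the labels here. Whether the called features lie together on a chromosome was not tested, at day 0 or at day 10. Features are described as groups, and 2 features that fell and 2 that rose are given by ID.

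Depth differed between the genotypes. Total counts were 1373377 to 3019843 in the Quaking KO libraries and 5413775 to 10646768 in the WT libraries, and 15274 to 17758 features had a count in Quaking KO against 20204 to 22238 in WT. The 10 most abundant features took 11.9% to 21.3% of the counts in Quaking KO and 9.34% to 13.4% in WT. Log2 levels correlated across features (not independent replicates) with r of 0.965 to 0.989 between libraries of a group and 0.966 to 0.98 between groups. On the first principal component, which held 33.4% of the variance, the shallowest library, Quaking KO replicate 2, stood apart at 38.1, and the other 5 libraries lay between -13.7 and -1.7. On the second, which held 28%, Quaking KO replicates 1 and 3 lay at -24.4 and -20.1. Replicate 2 lay at 8.4 there, within the WT range of 7.7 to 18.6. Counts are given below as CPM, counts scaled to a common library total after correction for library size and composition, and a count of 3 corresponded to 1.13 to 2.23 CPM in Quaking KO and 0.269 to 0.527 CPM in WT.

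Few features differed between Quaking KO and WT stem cells, and the features called lower changed by more than those called higher. Of 11378 features tested, 61 were lower (0.536%) and 34 higher (0.299%) in Quaking KO, 0.835% in all (quasi-likelihood test of edgeR, p adjusted by Benjamini-Hochberg, threshold 0.05). The 61 lower features had a median log2 fold change of -1.02, with a range of -3.5 to -0.42, and 31 of them were at least 2-fold lower. The 34 higher features had a median of 0.54, with a range of 0.38 to 1.98, and 6 of them were at least 2-fold higher. The 3 Quaking KO libraries lay wholly below or wholly above the 3 WT libraries for all 95, as they did for 18.9% of all features tested. Over all features tested the median log2 fold change was 0.01. Before adjustment, 734 features had a negative and 724 a positive change at p below 0.05.

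**Figure D1:**
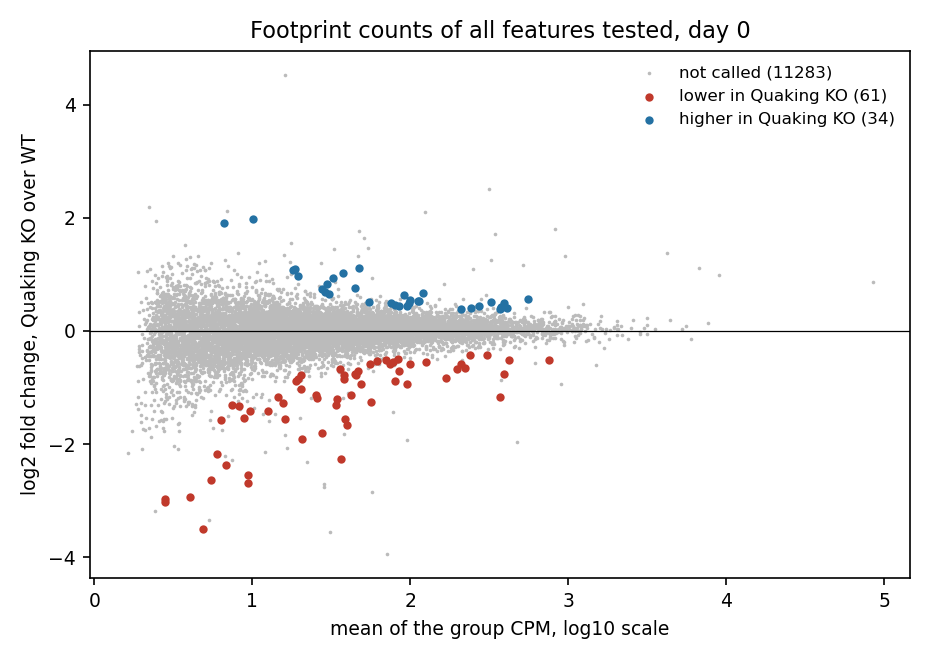
Each point is 1 of the 11378 features tested, with the mean of the group CPM on a log10 scale on the x axis and the log2 fold change of Quaking KO over WT on the y axis. The 61 lower features reach a log2 fold change of -3.5 and are spread over all levels, and 28 of the 34 higher features are less than 2-fold higher.

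The number called depended on the libraries and on the fit. Without Quaking KO replicate 1 there were 35 lower and 10 higher, without replicate 3 there were 29 and 20, and without replicate 2, the library that stood apart, 95 and 61. Leaving out WT replicate 1, 2 or 3 gave 52 lower each time, with 18, 21 and 13 higher. Of the 61 lower features, 26 were called in all 6 of these fits, and of the 34 higher features 4 were. A fit of all 18 libraries, in which day 10 embryoid bodies enter the estimate of spread, called 50 lower (0.365% of its features) and 0 higher, and 32 of the 61 were among the 50. DESeq2 on the same 6 libraries called 74 lower and 51 higher. In the fit of 18 libraries the medians of the 61 and of the 34 were -1.11 and 0.45. The biological coefficient of variation, the spread between replicates beyond counting error, was 0.125 in the 6 day 0 libraries, 0.229 over all 18 libraries and 0.3 in the corresponding 6 libraries at day 10.

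Lower features made up a like share at each level, and the share of higher features was larger at higher levels, a description without a test. Among features with a mean under 10 CPM, 14 of 3059 were lower (0.458%) and 1 was higher (0.0327%), and the smallest change called there was 1.31 on the log2 scale. Between 10 and 100 CPM, 36 of 6283 were lower (0.573%) and 19 higher (0.302%). Over 100 CPM, 11 of 2036 were lower (0.54%) and 14 higher (0.688%), and the smallest change called was 0.38. The excess of lower over higher calls lay among features below 100 CPM, and its cause was not tested. The size of the called changes also differed by level. Its median was 2.37 under 10 CPM, 0.84 between 10 and 100 CPM and 0.52 over 100 CPM (absolute log2 fold change). The part of level in the larger changes of the lower features was not tested. With every library thinned at random to the lowest total, 47 were lower and 21 higher, and 37 of the 61 and 16 of the 34 were among them.

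Of the lower features with at least 10 CPM in WT, ENSMUSG00000000805.18 had the largest decrease. It measured 21.6, 14 and 12.6 CPM in the WT libraries and 1.88, 3.71 and 2.35 CPM in the Quaking KO libraries, from 5, 5 and 6 counts. The lowest adjusted p at day 0 (edgeR, 9.03e-07) belonged to another lower feature, not given by ID. It measured 60.2 CPM in WT and 12.5 CPM in Quaking KO, a log2 fold change of -2.26. The features given by ID were chosen by size of change, not by p, among called features without overlap between the groups. Their separation from WT at day 0 is therefore no separate result. The log2 fold change of ENSMUSG00000000805.18 was -2.68 (SE 0.35, n = 3, edgeR adjusted p = 0.00103). It was not past the threshold in the fits of all 18 libraries (edgeR adjusted p = 0.0607) and of the 9 day 0 libraries (0.0751).

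Feature ENSMUSG00000042386.7 followed, with even WT values of 16, 16.2 and 16 CPM. The Quaking KO libraries gave 4.51, 2.23 and 1.17 CPM, from 12, 3 and 3 counts, so that 2 of the 3 were at the floor of 3 counts. The log2 fold change was -2.55 (SE 0.33, n = 3, edgeR adjusted p = 0.000927), past the threshold under all 14 alternatives run.

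Among the higher features, ENSMUSG00000007207.10 had the largest increase. It measured 2.99, 5.91 and 3.31 CPM in WT and 11.6, 18.6 and 18 CPM in Quaking KO. The log2 fold change was 1.98 (SE 0.3, n = 3, edgeR adjusted p = 0.00325). In the fit of all 18 libraries it was not past the threshold (edgeR adjusted p = 0.071).

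Feature ENSMUSG00000037801.13 measured 1.58, 3.55 and 3.05 CPM in WT and 12, 11.1 and 8.22 CPM in Quaking KO. The log2 fold change was 1.9 (SE 0.33, n = 3, edgeR adjusted p = 0.0102). This call was lost without Quaking KO replicate 1 (edgeR adjusted p = 0.109) and in the fits of 18 (0.473) and 9 (0.42) libraries.

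The levels of these features in the other groups, on a scale set over all 18 libraries, placed Quaking KO apart from both other lines for 3 of the 4 at both days. Its separation from WT at day 0 was a condition of the choice of features. For ENSMUSG00000000805.18, day 0 levels were 13.5 ± 3.86 CPM in WT (SD, n = 3 for each value here), 2.08 ± 0.713 in Quaking KO and 9.53 ± 5.94 in Sam68 KO. At day 10 they were higher in each line, at 222 ± 57.8 in WT, 31.1 ± 5.28 in Quaking KO and 178 ± 59.3 in Sam68 KO. At neither day did a Quaking KO library overlap a library of another line. For ENSMUSG00000007207.10, Quaking KO measured 12.7 ± 2.97 CPM at day 0 and 11.9 ± 2.57 at day 10, and the other lines had means of 3.41 to 4.93 CPM at the 2 days. Its day 10 counts were low, at 30, 5 and 2 in the WT libraries and 13, 12 and 8 in those of Sam68 KO.

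For ENSMUSG00000042386.7, WT measured 13.5 ± 0.361 CPM at day 0 and 6.62 ± 0.425 at day 10, and Sam68 KO 12.8 ± 2.6 and 5.63 ± 3.19. At day 10, replicate 3 of WT and replicate 3 of Sam68 KO held 3 counts each, so their values were at the floor. Quaking KO measured 2.08 ± 1.36 CPM at day 0 and had 5 counts over its 3 libraries at day 10, so its level there is near the floor. ENSMUSG00000037801.13 differed in this respect. It was at 2.42 ± 2.69 CPM in Sam68 KO at day 0, with a highest library of 5.47 CPM against a lowest of 6.55 in Quaking KO, and at day 10 it had 6 counts in Quaking KO, 1 in WT and 14 in Sam68 KO.

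**Figure D2:**
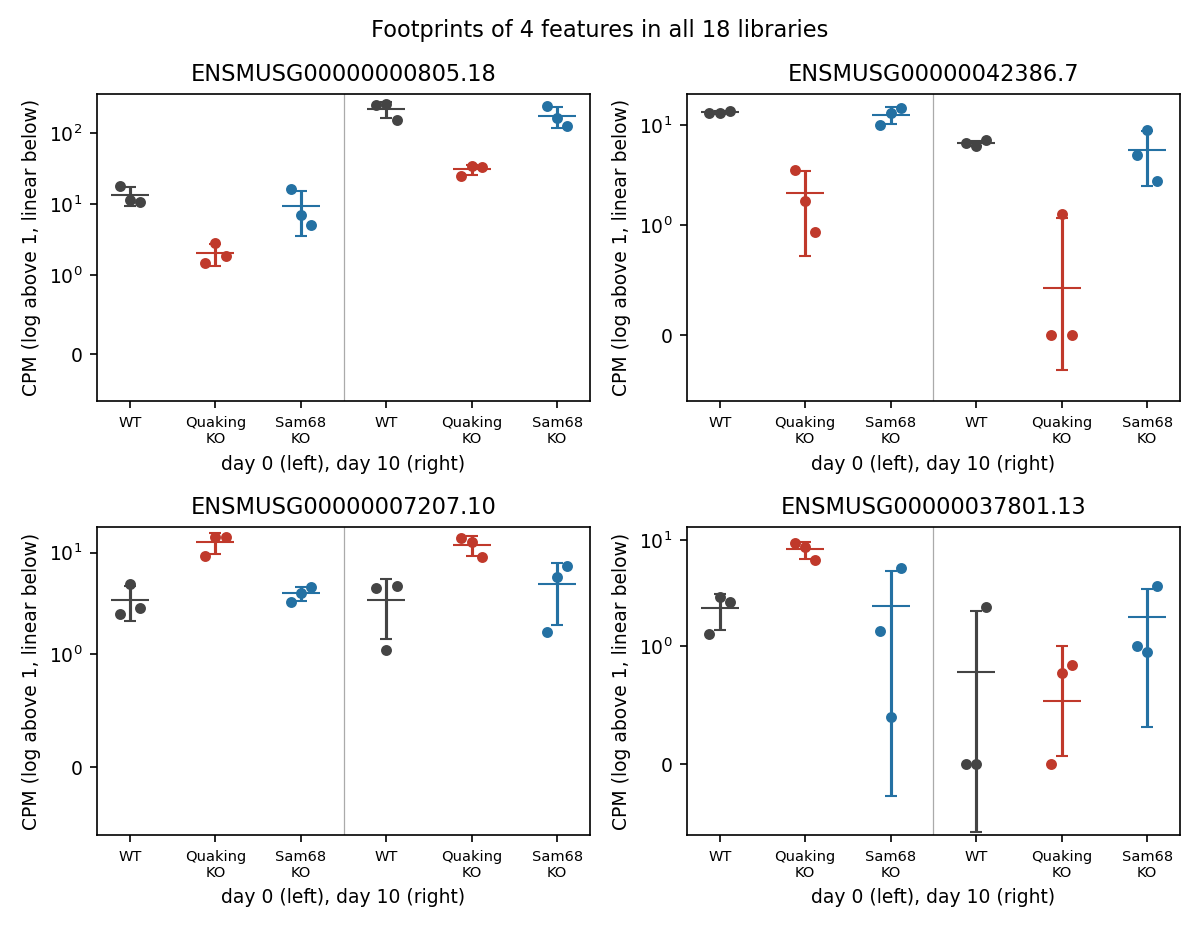
Points are the CPM of each of the 18 libraries on a scale set over all of them (y axis logarithmic above 1 and linear below), with bars for the mean and SD of 3 libraries. For ENSMUSG00000000805.18 and ENSMUSG00000042386.7 the Quaking KO libraries lie below both other lines at each day, and for ENSMUSG00000007207.10 they lie above them.

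The direct test of the difference between the knockouts at day 0 gave 264 lower features (2.34%) and 227 higher ones (2.01%) when Quaking KO was set against Sam68 KO, 4.36% of 11269 (edgeR, adjusted p below 0.05). These groups lie in different pools, so pool and knockout cannot be told apart, and the comparison shares its Quaking KO libraries with the one against WT. Set against Sam68 KO, ENSMUSG00000000805.18 had a log2 fold change of -2.15 (SE 0.53, edgeR adjusted p = 0.0397), ENSMUSG00000042386.7 of -2.47 (SE 0.39, 0.00191) and ENSMUSG00000007207.10 of 1.74 (SE 0.29, 0.00264). ENSMUSG00000037801.13 had 1.9 there with an SE of 0.81 and was not past the threshold (edgeR adjusted p = 0.28).

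The day 10 libraries of Quaking KO and WT share none with day 0, and some of the features changed in stem cells were also changed there in the same direction. Of the 61 features lower at day 0, 56 could be tested at day 10, and 20 of them (35.7%) were again lower, where 7.9% of all features tested at day 10 were lower. Another 4 of the 56 were higher at day 10, where 8.26% of all features were. Of the 34 higher at day 0, 26 could be tested; 7 (26.9%) were again higher and 1 was lower. The medians at day 10 were -0.58 for the 56 and 0.43 for the 26, against -0.01 for all features tested at that day. The features called at both days included 2 of the 4 given by ID: ENSMUSG00000000805.18 with -2.82 at day 10 (SE 0.22, edgeR adjusted p = 5.1e-06) and ENSMUSG00000007207.10 with 1.93 (SE 0.57, 0.0352).

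The count of 20 was 19 to 26 when each day 10 library was left out in turn, with 26 without WT day 10 replicate 3, in which 10 features took 70.4% of the counts. The count of 7 fell to 3 when replicate 3 of Quaking KO at day 10 was left out, and to 4 when replicate 1 or replicate 2 of WT was. WT and Quaking KO were in different pools at day 10, so pool and genotype cannot be told apart there. They were in the same pool at day 0. The labels do not say how many clones the Quaking KO line represents. An effect of the knockout and a trait of the line therefore cannot be told apart at either day.

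**Figure D3:**
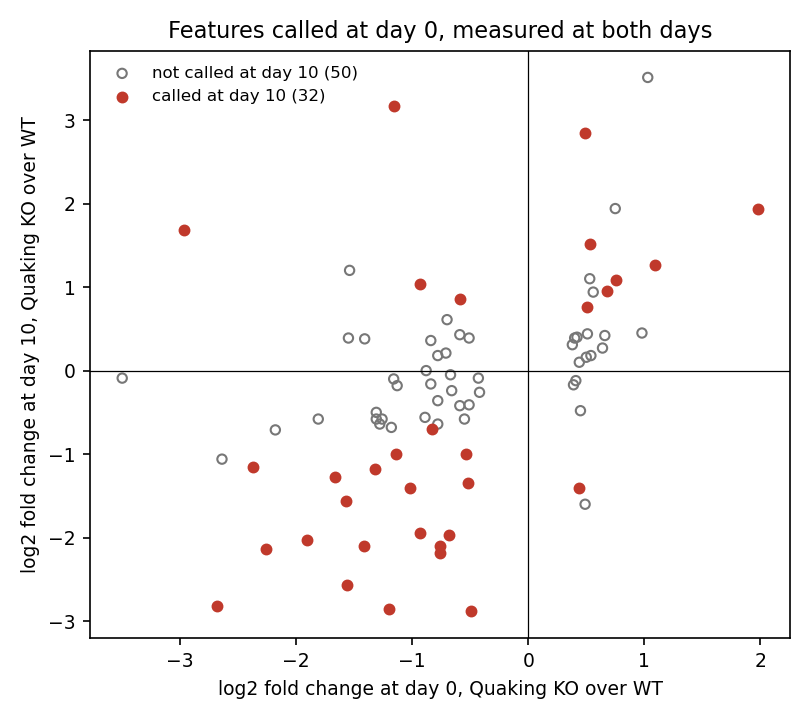
Each point is 1 of the 82 features called at day 0 that could be tested at day 10, with the log2 fold change of Quaking KO over WT at day 0 on the x axis and at day 10 on the y axis. The 32 filled points passed the test at day 10, and most of them lie in the lower left and upper right, where the directions of both days match.

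The difference between the days was also fitted. Of the 95 features called at day 0, 27 had a Quaking KO difference at day 10 unlike that at day 0 (edgeR interaction, adjusted p below 0.05, 8.13% of 12727 features tested). The 95 were chosen on the day 0 libraries, which also enter this fit, so a smaller or opposite difference at day 10 is favoured by the choice, and the count is a description. For 15 of the 22 among the lower features the difference at day 10 was less negative or positive, and for 7 it was more negative. For the 4 features given by ID the interaction was not past the threshold (edgeR adjusted p = 0.653 to 0.99). Of these, ENSMUSG00000042386.7 and ENSMUSG00000037801.13 could not be tested at day 10 alone, and their interaction SEs were 0.89 and 1.19. A value short of the threshold does not show that the differences were alike at both days.

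Features that rise over differentiation lay slightly below, and those that fall slightly above, their WT level in Quaking KO stem cells, a description without a test. These groups were formed from Sam68 KO cells, which share no library with this comparison, as features at least 2-fold higher (3265, or 26.5% of those tested there) or lower (2519, or 20.4%) at day 10 than at day 0 (edgeR, adjusted p below 0.05). Of the 2324 rising features tested here, 61.4% were lower in Quaking KO at day 0, by sign alone, with a median log2 fold change of -0.09. Of the 2482 falling features 38.9% were, with a median of 0.05, and of all features 48.9% were, with a median of 0.01. Relative to all features the medians of the rising and falling groups were -0.09 and 0.04, and with no filter on low counts they were -0.04 and 0.12. In each Quaking KO library the median of the rising group was below the WT mean, at -0.1, -0.07 and -0.11, and that of the falling group above it, at 0.05, 0.02 and 0.06 (log2 of CPM + 1). These shifts are small beside the changes of the called features. The library values of each group share the same WT mean, and each Quaking KO library was shallower than each WT library. The part of level and depth in these medians and in the shares by sign was not tested.

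Among the called features, 17 of the 61 lower ones (27.9%) were in the rising group and 12 (19.7%) in the falling group, which held 20.4% and 21.8% of all features tested. Of the 34 higher ones, 5 (14.7%) were in the rising and 17 (50%) in the falling group. The falling group is the more abundant, with a median of 58.5 CPM in WT against 10.8 for the rising group, and the part of level and depth in these shares was not tested.

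In each list of cell-cycle markers 1 feature was called. Of the G1, S and G2/M marker lists, 1 of 55 (1.82%), 1 of 98 (1.02%) and 1 of 50 (2%) features were lower and 0 were higher (edgeR, adjusted p below 0.05). Among all features the shares were 0.536% and 0.299%. Single calls do not show whether the lists differ from all features. Their median log2 fold changes were -0.01, 0.05 and 0.02. Those of the G2/M markers were 0.08, 0.05 and 0.04 in the 3 Quaking KO libraries against the WT mean. The median of the S markers was also above the WT mean in each Quaking KO library, by 0.01, 0.11 and 0.04, and the highest of these values came from replicate 2, the library that stood apart. The medians of the G1 markers were -0.03, -0.09 and 0.01 and so lay on both sides of the WT mean. Relative to all features the medians of the G1, S and G2/M lists were -0.02, 0.04 and 0.02, and with no filter on low counts 0.05, 0.11 and 0.1. Without the filter, the median of all features takes in low-count features. The values of the rising and falling groups rose there too, from -0.09 to -0.04 and from 0.04 to 0.12. The change of sign for G1 is therefore not read as a change in the markers themselves.

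**Figure D4:**
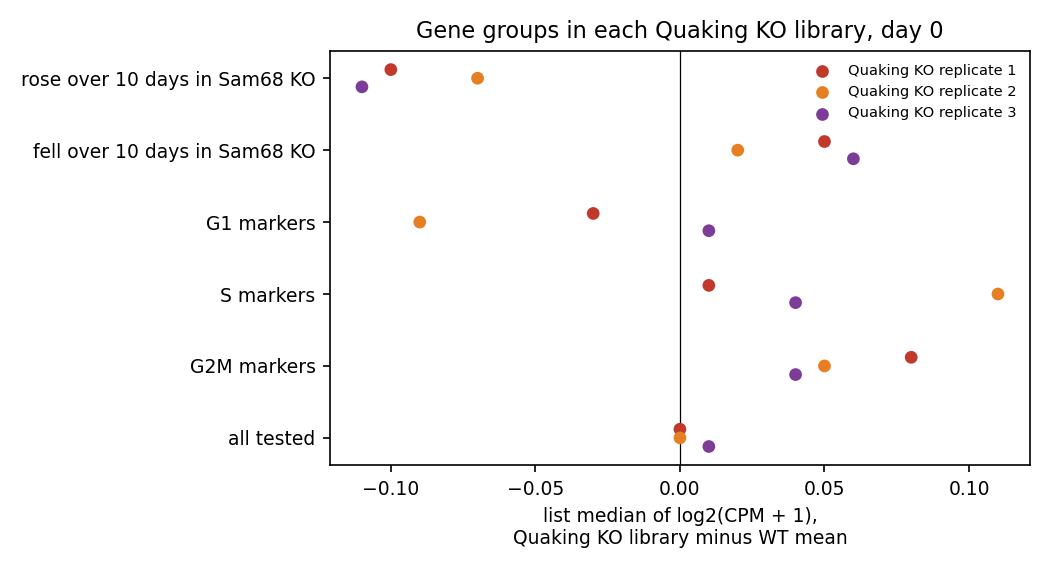
For each group of features (rows), points show the median over the group of log2(CPM + 1) in a Quaking KO library at day 0 minus the mean of the 3 WT libraries, on the x axis. The group that rose over differentiation in Sam68 KO lies at -0.11 to -0.07 and the group that fell at 0.02 to 0.06, and the median of all features lies at 0 to 0.01.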

How the data were processed

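The deposited files hold raw counts per Ensembl ID, as whole numbers, 1 file for each of 18 libraries. The submitters' processing notes name bcl2fastq 2.17.1.14, STAR 2.5.3a and Bowtie2, with builds mm10 and GRCm38. How reads were assigned to genes, with which annotation and whether by strand, is not given in the sources used here, so overlapping, antisense and near-identical genes are uncertain. Groups, replicate numbers and pools came from the labels.

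Each comparison was fitted with edgeR 4.0.16 (R 4.3.3; robust quasi-likelihood fit, TMM scaling, default low-count filter) on its own 6 libraries, or 12 for the interaction, because spread differs between days. SE is the log2 fold change over the square root of F. Adjustment ran over all features tested, two-sided. The day 0 filter kept 11378 of 26570 features with a count. The test was also run on simulated counts with known changes, drawn with the spread estimated in its own fit. That run does not show how many of the calls here are false. Alternatives, among them DESeq2 1.42.0, are in the closing section.

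The comparison, lists and fit were chosen with earlier results of these data known. Features given by ID passed the threshold, had a mean of at least 10 CPM in one group and libraries that did not overlap, and showed the 2 largest log2 fold changes in each direction. The 34 gene lists written by symbol could not be matched to IDs. Cell-cycle lists are the marker pairs of scran 1.30.0, kept where a gene leads in 1 phase only. Replicates differed by more than sampling noise (lowest chi-square per degree of freedom 4.86). The floors of 3 counts reflect counting error alone, as no molecular identifiers are named that would mark PCR copies.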

Additional observations from a re-analysis of the deposited data

Results flagged for a closer look

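The interaction fit gave 27 of the 95 features called at day 0 with a difference from WT at day 10 unlike that at day 0, 22 of them lower and 5 higher in Quaking KO at day 0. Over all features tested, 8.13% passed the same threshold. The 95 were chosen on day 0 values that also enter the interaction, which favours a smaller or opposite difference at day 10, so the count does not show how often the effect differs between the days. Of the 22, 12 had a positive log2 fold change at day 10, and of the 5, 2 had a negative one. At day 10 the 2 groups were in different pools. No test for a single outlying value was run feature by feature in groups of 3 libraries.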

How the results depend on the processing

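The 95 calls at day 0 (61 lower, 34 higher) became 50 (0 higher) with all 18 libraries and 36 (28 and 8) with the 9 libraries of day 0. They became 323 (219 and 104) with no filter on low counts, and 21 were higher after thinning. Leaving out 1 library gave 45 to 156 calls, 29 to 95 lower and 10 to 61 higher. RLE scaling, upper quartile scaling, DESeq2 and the replicate block kept the total within 1.5 times. At day 10 the 1887 calls (922 lower, 965 higher) became 3279 (1756 and 1523) with all 18 libraries, and 1160 to 2382 (594 to 1252 lower, 566 to 1130 higher) without 1 library. Of the features higher at day 0, 12 were higher at day 10 with all 18 libraries, 3 after thinning and 3 to 9 without 1 library; of those lower at day 0, 19 to 26 were lower at day 10 without 1 library. The 491 calls against Sam68 KO became 754 with all lines of the day and 871 with no filter, and 188 to 509 without 1 library. The 1035 interaction calls became 579 after thinning and 678 to 1428 without 1 library. Fits of more libraries use a spread that other groups share, and thinning removes counts. Whether these account for the changed numbers was not tested, and neither were other causes.

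At day 0 the replicate numbers showed no pairing of the Quaking KO and WT libraries. Deviations from the group means correlated at -0.02, -0.13 and 0.03 for replicates 1, 2 and 3. The other comparisons were not checked in this way. With the replicate block 84 features were called at day 0 (58 lower, 26 higher), 1486 at day 10, 629 against Sam68 KO and 810 in the interaction. The day 0 fold changes of the 4 features given by ID kept their direction under the 14 alternatives run; their other values were not rerun. Depth limits the low features most, since 3 counts are 2.23 CPM in Quaking KO replicate 2.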
